A study of Homo sapiens with 4 samples.

Results

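Reads assigned to 5S ribosomal RNA in an improved RNA immunoprecipitation sequencing (iRIP-seq) experiment were compared between RNA pulled down with SF3B6 antibody (IP) and input RNA of MDA-MB-231 cells, a human triple-negative breast cancer line. The members were all rows of the count table whose symbol begins with RNA5S, which takes in genes and pseudogenes, or equals 5S_rRNA; the 5.8S genes were left out. There were 49 such rows of 18276, made up of 17 RNA5S genes, 30 RNA5SP pseudogenes and 2 rows named 5S_rRNA. The rule used names and no measured value.

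There were 2 IP and 2 input libraries, which the series design calls biological replicates. By the treatment protocol, which is the same for all 4 libraries, cells were irradiated once, lysed, and treated with DNase and micrococcal nuclease. The labels name no genetic change and no drug for these samples. An SF3B6 antibody was used for the IP libraries and input is RNA taken without pull-down. The protocols also name a control IgG, which was not analysed here; with input as the one reference, recovery by antibody or beads as such was not separated from recovery through SF3B6. All 4 titles name MDA-MB-231, whereas the line named in the sample characteristics changes in its final digit from sample to sample. All 6 mesenchymal markers listed for this line were counted in input, from CAV1 (41 and 91 counts) to VIM (286 and 532) and AXL (871 and 1537). Of the luminal breast markers listed, EPCAM, CDH1 and GATA3 had 6, 4 and 19 input counts in all. KRT19, also a luminal marker, had 191, more than the 132 of CAV1. The protein SF3B6 belongs to SF3b, a complex of the U2 small nuclear ribonucleoprotein that binds around the intron branch point.

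5S rRNA is the smallest RNA of the large ribosomal subunit. It is made by RNA polymerase III outside the nucleolus from a tandem array of near-identical genes on chromosome 1, with the factor TFIIIA (encoded by GTF3A) bound inside the gene. New 5S RNA is held by the ribosomal proteins RPL5 and RPL11 as the 5S ribonucleoprotein, which is built into the large subunit and, when free, binds the p53 regulator MDM2. RNA5SP rows are scattered pseudogenes, sequences that resemble 5S but lie outside the array. Reads of such similar copies can be assigned to any of them, by a rule not given in the sources used here. A count per copy is therefore the count assigned to that name. The sum over the member rows does not depend on how reads were shared among those rows. This holds only if each read was counted once and within them, which the sources used here do not settle.

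SF3B6 IP 1 held 55492 gene counts, SF3B6 IP 2 30431, input 1 317190 and input 2 519836. Over all rows, the spread between replicates exceeded sampling noise (chi-square per degree of freedom 2.49 for the IP pair and 1.5 for the input pair). Among 5S rows with at least 10 counts in a pair, the division of counts among copies differed by no more than sampling noise (0.911 over 7 rows in IP and 0.340 over 11 rows in input). IP libraries were shallower than inputs without exception, so depth and pull-down cannot be told apart.

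The 5S rows together made up a larger share of gene counts in both IP libraries than in either input. The 49 rows held 318 counts in SF3B6 IP 1, 169 in SF3B6 IP 2, 379 in input 1 and 383 in input 2. As a share of gene counts this was 0.573% (Wilson 95% interval 0.514% to 0.639%), 0.555% (0.478% to 0.645%), 0.119% (0.108% to 0.132%) and 0.0737% (0.0667% to 0.0814%). The IP libraries lay close to each other and the inputs apart by more than their counting intervals, and the groups did not overlap. Intervals cover counting error only, since reads without molecular identifiers are not independent molecules.

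After TMM scaling, which sets the bulk of tested genes equal between libraries, the sum stood at 7183 ± 256 CPM (counts scaled to one common library size) in IP and 1057 ± 391 CPM in input (SD, n = 2 each). The fitted log2 fold change, IP minus input, was 2.78 ± 0.21 (SE), a 6.86-fold difference. No p-value is attached to the sum, since its members were chosen with results known. With 2 against 2 libraries an exact permutation test, two-sided, cannot go below 0.333. Without input 1 the log2 fold change was 3.26, without input 2 it was 2.47, and without SF3B6 IP 1 and 2 it was 2.61 and 2.66. The shift without input 1 was larger than the SE, which belongs to the fitted difference and does not measure the spread between inputs. Filter and TMM factors also changed in that fit, which tested 1266 genes instead of 3668.

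The size of this difference depended on what the libraries were scaled to. Summed FPKM (the authors' deposited values, scaled to gene length and library total) of the 49 rows was 3525 and 2846 in the IP libraries, against 1506 and 1274 in the inputs. The groups were again apart, by 1.20 ± 0.42 (SE) on the log2 scale when the library totals behind the FPKM values were used for scaling. Gene counts made up 7.32% and 6.07% of those totals in SF3B6 IP 1 and 2 and 15.0% and 20.4% in input 1 and 2. At that scaling the median log2 fold change of all tested genes was -1.65, against -0.06 with TMM, so that the sum lay 2.78 above 0 where most genes were near 0 and 1.20 above 0 where most genes were lower in IP.

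**Figure D1:**
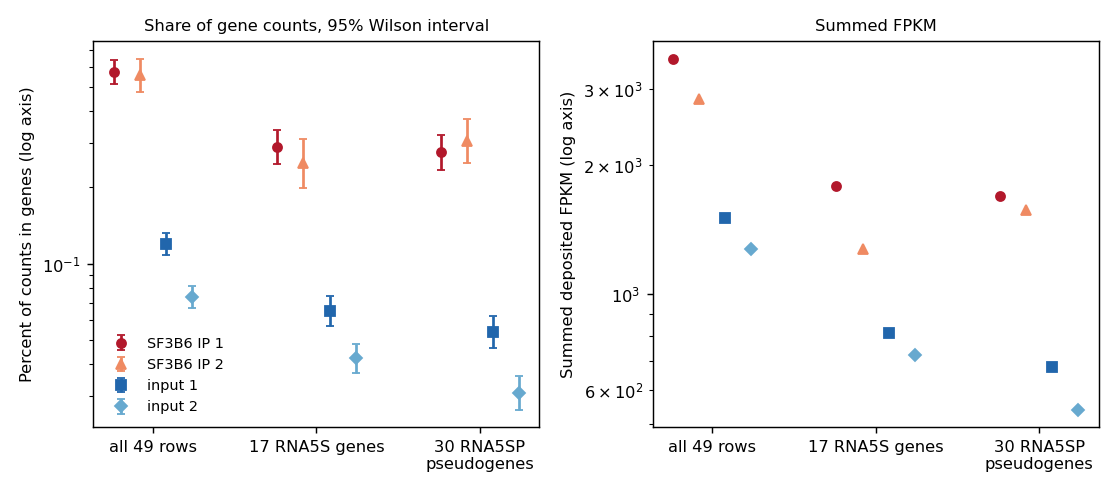
Left, percent of gene counts held by all 49 rows, by the 17 RNA5S genes and by the 30 RNA5SP pseudogenes in each library, with 95% Wilson intervals, on a log axis. Right, summed deposited FPKM of the same rows on a log axis. Both IP libraries lie above both inputs in every column, from 0.555% to 0.573% against 0.0737% to 0.119% for all rows.

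Summed array genes and summed pseudogenes both lay higher in IP. The 17 RNA5S genes had 161 and 76 counts in the IP libraries, those of the inputs being 205 and 219, with a log2 fold change of 2.59 ± 0.20 (SE). The 30 pseudogenes had 153 and 93 against 170 and 160, with 3.03 ± 0.22. A single pseudogene, RNA5SP202, held most of the latter, and without it the other 29 kept 15 and 11 counts in the IP libraries, to 35 and 27 in the inputs. Their pooled ratio, IP over input per TMM-scaled total, was 4.75 (exact 95% interval 2.89 to 7.63), below the 9.30 of RNA5SP202 (7.75 to 11.2). With RNA5SP202 taken out of the 5S sum, the log2 fold change was 2.54 ± 0.21. The sum thus stayed higher in IP without its most abundant row.

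Of the 49 rows, 10 passed edgeR's default expression filter and 9 of these were higher in IP in the quasi-likelihood test at an adjusted p under 0.05; none was lower. Among all 3668 tested genes 2.7% were called higher and 1.36% lower, which is 99 and 50 genes; with library totals the split was 60 and 90, and with the FPKM totals 17 and 2098. Only RNA5SP202 and RNA5S9 reached the filter in an input library. The other 8 reached it through IP alone and were bound to come out high, so their number is a description. All 8 rows with at least 10 counts in 2 libraries had that many in both inputs. That filter does not draw on IP for these rows. With it 7 of the 8 were called, against 1.76% of all 5052 genes tested. The rows are of similar sequence and under one rule of read assignment, so the 7 calls are not separate observations. Calls of the less abundant copies did not all hold when 1 library was left out. Some of these copies were no longer tested. With SF3B6 IP 1 or 2 left out 8 of the 9 were still tested, and with input 1 or 2 left out 7. Every member tested in those fits had a positive log2 fold change, from which no support is drawn. Of the 9, the call held for 3 without SF3B6 IP 1 (RNA5SP202, RNA5S9 and RNA5S11), 6 without SF3B6 IP 2 (these and RNA5S7, RNA5S10 and RNA5S12), 2 without input 1 and 2 without input 2 (RNA5SP202 and RNA5S9 each time). In those fits 0.476%, 1.51%, 3.08% and 2.13% of all genes tested were called higher. In these fits the lone library of a group was assumed to vary like those of the other group. With the FPKM totals 2 were called, RNA5SP202 and RNA5S7, against 0.463% of all genes, and with log2(FPKM + 0.1) in limma only RNA5SP202, against 0.409%.

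RNA5SP202 had the most counts of any member. RefSeq places it on chromosome 6, from 4427963 to 4428081 (GRCh38.p14). There it overlaps the span of the uncharacterised lncRNA gene LOC107986560, whose exons were not examined. The table types it as an rRNA pseudogene. It had 138 counts in SF3B6 IP 1, 82 in SF3B6 IP 2, 135 in input 1 and 133 in input 2. SF3B6 IP 1 thus held about as many RNA5SP202 reads as each input at a far smaller depth. Scaled to library size it reached 3306 ± 378 CPM in the IP pair and 373 ± 144 CPM in the input pair (SD, n = 2 each), a log2 fold change of 3.18 ± 0.21 (SE, edgeR adjusted p = 1.12e-13). By FPKM, which allows genes to be compared per length, it ranked 9th and 7th of all rows in the IP libraries and 28th and 27th in the inputs, at 1530, 1375, 535 and 439 FPKM.

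RNA5S9 was the most abundant of the true genes. It lies on chromosome 1 from 228628146 to 228628266, in the array and in no other gene of RefSeq. SF3B6 IP 1 and 2 gave it 65 and 37 counts, input 1 and 2 85 and 107. Both IP libraries lay above both inputs after scaling, at 1522 ± 128 CPM against 259 ± 57.2 CPM. The log2 fold change was 2.58 ± 0.21 (edgeR adjusted p = 2.44e-11). Its FPKM was 721 and 620 in the IP pair, 337 and 353 in the input pair. With the FPKM totals its log2 fold change was 0.96, short of the threshold (edgeR adjusted p = 0.0757).

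The other tested copies were array genes with far fewer reads. RNA5S7 (chromosome 1, 228623665 to 228623785) was counted 18 and 6 times in the IP libraries and 14 times in each input, and its log2 fold change of 3.26 ± 0.48 was the highest of the 10 (edgeR adjusted p = 1.03e-05). It did not pass without SF3B6 IP 1 (0.126), input 1 (0.193) or input 2 (0.190). RNA5S12, with 11 and 3 against 10 and 11 counts, was at 2.87 ± 0.58. RNA5S13 had 3 and 3 against 6 and 3 counts and was at 2.84 ± 0.79, the least certain of the calls (adjusted p = 0.0309), and lost it with upper quartile scaling (0.0654) TMM factors taken over all rows (0.0566) or no filter (0.154). RNA5S5 (7 and 2 against 7 and 7 counts) was at 2.80 ± 0.67. RNA5S11 was at 2.78 ± 0.55, with 9 and 7 against 13 and 13 counts. RNA5S8 (8 and 6 against 16 and 14) was at 2.37 ± 0.57 and RNA5S10 (13 and 3 against 16 and 20) at 2.32 ± 0.52. RNA5S6 had 7 and 2 counts against 13 and 11 and a log2 fold change of 2.04 ± 0.66, which did not pass (adjusted p = 0.0827). In all 10, both IP libraries lay above both inputs; 20.9% of all tested genes did so, but no support is drawn from this, since 8 of the 10 had passed the filter through IP alone. Without SF3B6 IP 1 the log2 fold changes of RNA5S10, RNA5S12, RNA5S5, RNA5S7 and RNA5S6 dropped to 1.26, 2.02, 2.01, 2.61 and 1.24. Those of RNA5S8 and RNA5S11 rose to 2.51 and 2.94 in the same fit. The SEs of neighbouring copies overlapped, so their order by fold change is not resolved.

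**Figure D2:**
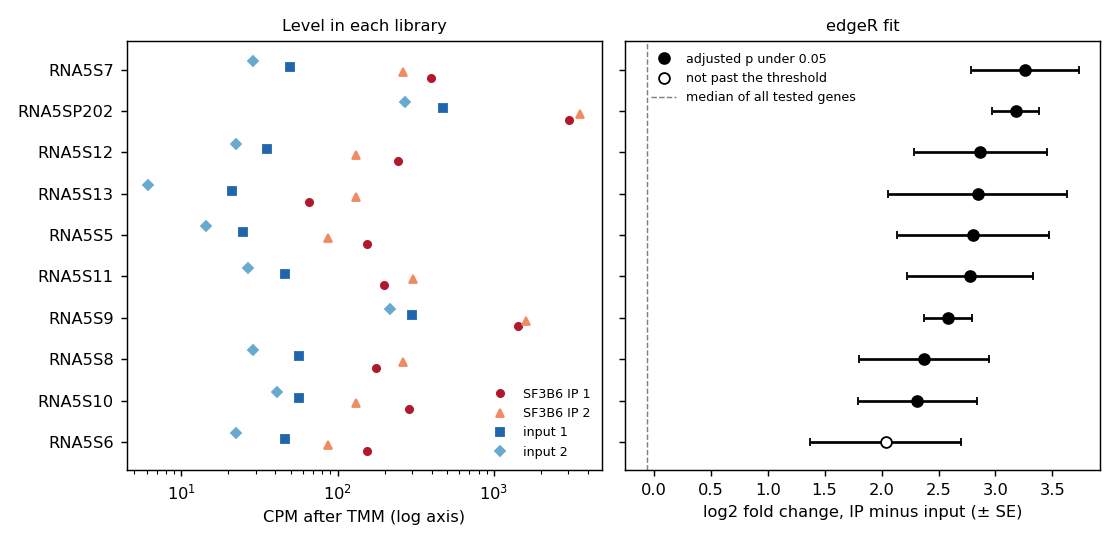
Left, level of each of the 10 tested members in each library, in CPM after TMM on a log axis. Right, log2 fold change, IP minus input, with its SE from edgeR; filled points had an adjusted p under 0.05, the open point (RNA5S6, 2.04) did not, and the dashed line is the median of all tested genes, -0.06.

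Counts per array gene were highest in the middle of the array, in IP and in input. RefSeq numbers the 17 genes along chromosome 1 from 228610266 to 228646158, with starts 2215 to 2242 bases apart. RNA5S9, the central gene, held 40.4% and 48.7% of the array's counts in SF3B6 IP 1 and 2 and 41.5% and 48.9% in input 1 and 2. The next gene by total count had 52 counts over the 4 libraries against 294 for RNA5S9, a 5.65-fold gap. Genes 4 to 12 together held 90.0% of array counts, with 20 to 294 counts each. Genes 1 to 3 and 13 to 17 had 4 to 15 counts each. Across the 17 genes, IP and input counts had a Spearman correlation of 0.96, or 0.95 without RNA5S9. This is a description over genes that share libraries, near-identical sequence and one rule of read assignment.

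No difference in the IP to input ratio was detectable along the array. The pooled IP over input ratio was above 1 for all 17 genes, from 3.78 for RNA5S17 (exact 95% interval 0.0720 to 47.1, from 1 IP and 3 input counts) to 13.6 for RNA5S2 (3.46 to 56.3, from 6 and 5 counts), with a median of 6.80. For 13 of the 17 the interval, which covers counting error only, lay above 1. These genes share near-identical sequence and one rule of read assignment, so the 17 are not separate observations. The share of all genes with a ratio or interval above 1 was not computed. The inner stretch, genes 4 to 12, had 210 IP and 385 input counts and a ratio of 6.18 (5.20 to 7.33). The outer stretch had 27 and 39 counts and a ratio of 7.85 (4.62 to 13.1). These intervals overlap. The stretches were chosen after the counts had been seen.

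**Figure D3:**
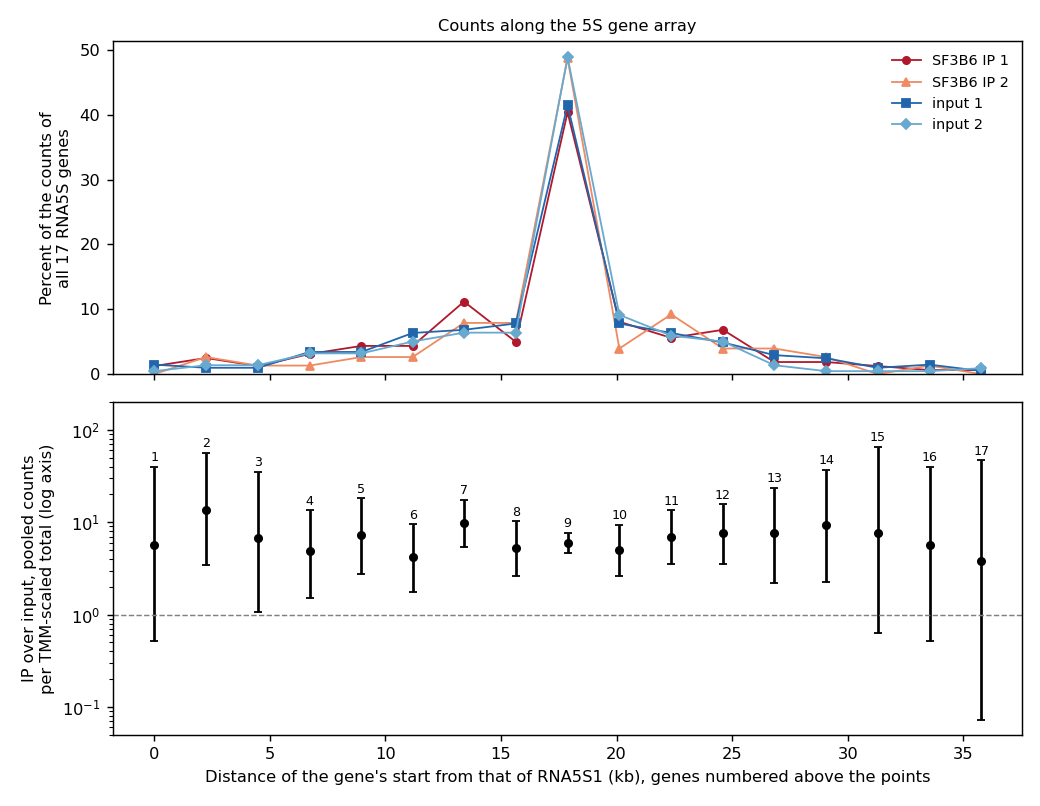
Top, percent of the counts of all 17 RNA5S genes held by each gene in each library, against the distance of its start from that of RNA5S1 in kb; the peak is RNA5S9, at 40.4% to 48.9%. Bottom, pooled IP over input ratio per TMM-scaled total for each gene on a log axis, with exact 95% intervals of counting error. All 17 points lie above 1 and 13 intervals do, but the genes share near-identical sequence and one rule of read assignment and are not separate observations.

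RNA5SP202 made up a larger part of 5S counts in the IP libraries than in the inputs. It held 43.4% and 48.5% of 5S counts in SF3B6 IP 1 and 2 (Wilson 95% intervals 38.1% to 48.9% and 41.1% to 56.0%) and 35.6% and 34.7% in input 1 and 2 (31.0% to 40.6% and 30.1% to 39.6%). The groups were apart, but the interval of SF3B6 IP 1 overlapped those of both inputs, and an exact permutation test of 2 against 2 cannot go below 0.333. Counts of RNA5SP202 per count of RNA5S9 were 2.12 and 2.22 in the IP pair, 1.59 and 1.24 in the input pair. RNA5S9 itself held 20.4% and 21.9% of 5S counts in the IP pair, 22.4% and 27.9% in the inputs, and the other 16 RNA5S genes held 30.2% and 23.1% against 31.7% and 29.2%. The 29 other pseudogenes held 4.72% and 6.51% in the IP pair, 9.23% and 7.05% in the inputs. Shares within 5S need no scaling between libraries.

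A further 7 members had at least 10 counts in all but did not pass the filter. RNA5S4, RNA5S14 and RNA5S2 belong to the array, at ratios of 4.86 (exact 95% interval 1.53 to 13.5), 9.44 (2.28 to 37.1) and 13.6 (3.46 to 56.3). RNA5SP145, overlapping the span of MED12L on chromosome 3, had 3 and 1 counts against 4 and 3 (ratio 6.48, 1.39 to 25.5). RNA5SP141, also on chromosome 3, had 3 and 1 against 4 and 2 (7.56, 1.57 to 31.9). The 5S_rRNA row on chromosome X had 4 and 0 against 3 and 4 (6.48, 1.39 to 25.5). RNA5SP149 had 0 and 1 counts in the IP libraries, 6 and 10 in the inputs, and a pooled ratio of 0.708 (0.0169 to 4.56). It lies on chromosome 3 from 180161887 to 180161977, in no other gene of RefSeq. After TMM scaling it stood at 0 and 43.6 CPM in SF3B6 IP 1 and 2, against 21.1 and 20.4 CPM in input 1 and 2. With a single IP count no direction is shown. Its interval reaches from far below 1 to well above it. The upper bound lies under the lower bound of RNA5SP202, but both intervals cover counting error only.

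The remaining 32 members had under 10 counts, 18 of them a single count. RNA5SP74 (chromosome 1, 204562413 to 204562521), singled out after its values were seen, had 2 and 3 counts in the IP libraries, none in the inputs, and the exact 95% interval of its ratio began at 10.4. Of the 29 pseudogenes other than RNA5SP202, 8 had counts in both groups, 15 in input alone and 6 in IP alone. In RefSeq 22 of the 30 pseudogenes overlap the span of another gene, 16 of them that of a protein-coding gene. The 22 include the 2 pseudogenes whose RefSeq and FPKM-implied lengths differed by over 50 bases. Where spans overlap, reads of the pseudogene and of its host transcript cannot be told apart. RNA5SP335 (0 IP and 2 input counts), overlapping NAV2, and RNA5SP226 (1 and 5), overlapping PDE10A, are such cases. RefSeq lists 510 RNA5SP symbols, of which 30 are rows of this table.

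Against other RNAs of the same library, where the scaling between libraries cancels, 5S was higher in IP relative to most other short RNAs. For every count of 5.8S rRNA (3 RNA5-8S genes), which is made by RNA polymerase I and sits in the same large subunit, there were 0.644 and 1.42 counts of 5S in SF3B6 IP 1 and 2, and 0.130 and 0.0956 in input 1 and 2. The groups did not overlap, and the ratio was 8.58-fold higher in IP. Per count of mitochondrial rRNA (MT-RNR1 and MT-RNR2) 5S stood at 0.378 and 0.381 against 0.0553 and 0.0381, an 8.28-fold difference. The log2 fold changes of these rRNAs themselves were -0.17 ± 0.25 for 5.8S and -0.24 ± 0.25 for mitochondrial rRNA.

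Other products of RNA polymerase III varied. Per count of RNase MRP RNA (RMRP), which cuts the ribosomal precursor, 5S stood at 1.45 and 1.47 in the IP pair, at 0.175 and 0.127 in the inputs. Per count of 7SK, a regulator of transcript elongation, it stood at 1.04 and 0.824 against 0.159 and 0.117. Per count of RNase P RNA (RPPH1), which trims transfer RNA precursors, it stood at 0.510 and 0.361 against 0.0924 and 0.0723. In each case the groups were apart, by 9.76-fold, 6.79-fold and 5.25-fold. Relative to 7SL, which scaffolds the signal recognition particle (RN7SL1 and RN7SL3), 5S stood at 0.0819 and 0.0409 in IP against 0.0365 and 0.0341 in input. SF3B6 IP 2 lay just above the inputs here, and the 1.64-fold difference was small beside the others, since 7SL also had a high log2 fold change, 2.16 ± 0.34. Y RNA had 3 counts over both IP libraries and U6 also 3, too few for a ratio of use.

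Relative to the spliceosomal RNAs of the U2 family 5S was not higher in IP. Per count of U12 (RNU12), the branch-point RNA of the minor spliceosome, 5S stood at 7.23 and 9.94 in the IP pair, at 25.3 and 21.3 in the inputs, with no overlap and in the opposite direction. Per count of U2, over 17 copies, it stood at 1.70 and 4.12 against 3.13 and 6.08, and these groups overlapped. Log2 fold changes were 4.37 ± 0.33 for U12 and 3.66 ± 0.28 for U2 beside 2.78 ± 0.21 for 5S. Per count of U4, 5S stood at 2.29 and 1.59 in IP against 0.856 and 0.690 in input, and per count of U1 at 1.61 and 1.62 against 0.243 and 0.226. Per count of U5 it stood at 16.7 and 16.9 against 2.61 and 2.15. Over the 11 RNA families with at least 10 IP counts, which leaves out Y RNA and U6, 5S was higher in IP without overlap against 9, lower without overlap against 1 (U12) and overlapping for 1 (U2). For each of the 10 without overlap the exact permutation p (two-sided) was 0.333, the smallest this design gives. All 11 ratios use the same 5S counts, so they are not separate observations. The share of all genes against which 5S lay higher without overlap was not computed, so the tally is a description.

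**Figure D4:**
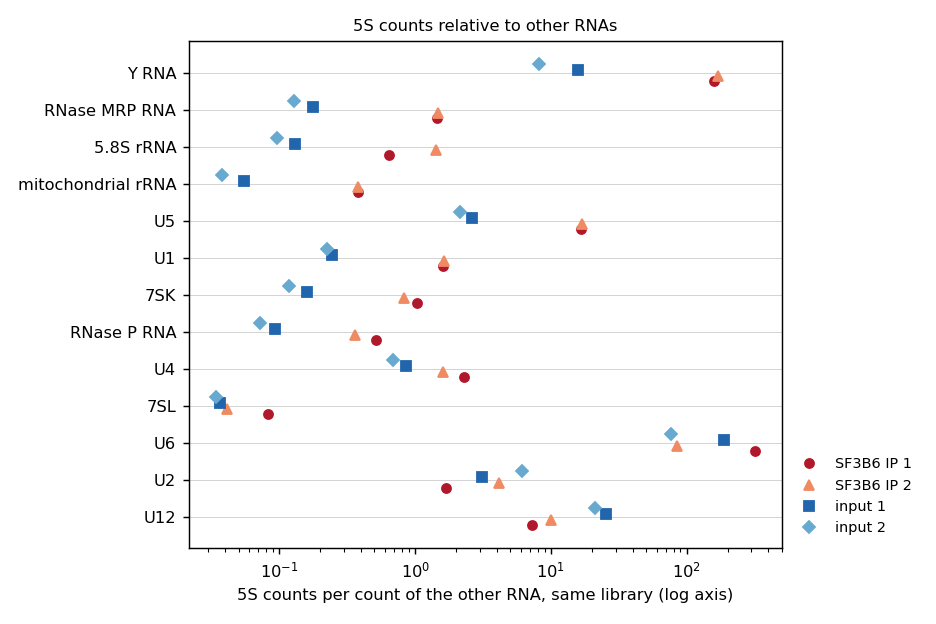
Counts of 5S per count of each other RNA in the same library, on a log axis, ordered by the difference between IP and input. IP points lie to the right of input points for Y RNA down to 7SL, overlap for U6 and U2, and lie to the left for U12 (7.23 and 9.94 against 25.3 and 21.3).

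No transcript of the proteins that make or carry 5S RNA passed the test in the fit reported. Of 13 listed genes of the 5S ribonucleoprotein and its assembly found in the table, 3 passed the filter and 0 were called by edgeR. At an unadjusted p under 0.05 there was 1, RPL23 at 1.13 ± 0.51. RPL11 had 5 and 2 counts in the IP pair, 17 and 26 in the inputs (log2 fold change 0.87 ± 0.65, edgeR adjusted p = 0.548). RPL5 had 2 and 2 against 8 and 12, a ratio of 2.27 with an exact interval from 0.563 to 6.77. GTF3A had 1 and 0 against 5 and 9 (0.810, 0.0191 to 5.32). Of 13 genes for RNA polymerase III subunits and its repressor MAF1, 2 were tested and 0 called, with 0 at an unadjusted p under 0.05. POLR3A did not pass the filter, with 0 IP and 45 input counts and an exact interval of 0 to 0.968. Of 8 for TFIIIB and TFIIIC, the factors that bring the polymerase to its genes, 3 were tested and 0 called, with 1 at an unadjusted p under 0.05. That gene was GTF3C1 (11 IP and 294 input counts), at -1.23 ± 0.39 (adjusted p = 0.0657), and it was called lower with library totals, where 2.45% of all genes were.

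Among messengers of the large subunit's proteins 1 gene passed the test. Of 48 listed rows, 32 were tested, 1 was higher and 0 were lower, against 2.7% and 1.36% of all tested genes. At an unadjusted p under 0.05 there were 8 of the 32, and 574 of all 3668. The list's median log2 fold change was 0.30 beside -0.06 for all genes. Some of the 32, RPL11 among them, reached the filter through IP alone and were bound to come out high. No support is drawn from this share or median. The gene called was RPL36, with 10 and 8 counts in the IP pair, 27 and 40 in the inputs (1.60 ± 0.45, edgeR adjusted p = 0.0334), a call that library totals did not give. For comparison the 5S sum was at 2.78 in the same fit. Genes outside the tested ones did not pass the filter. It asks for fewer counts in IP than in input, so genes low in IP and short of the input thresholds went untested.

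**Figure D5:**
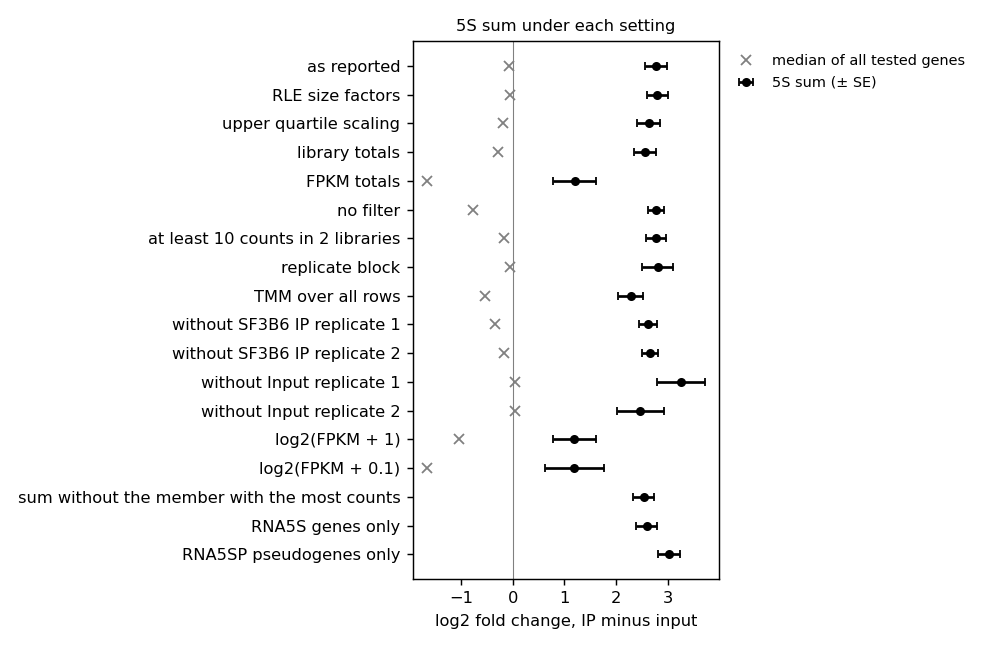
Log2 fold change of the 5S sum, IP minus input, with its SE (points) under each setting, beside the median of all tested genes in the same setting (crosses). The sum lies above 0 and above that median in every setting shown, from 1.19 with log2(FPKM + 1) to 3.26 without input 1.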

How the data were processed

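The authors deposited read counts per gene, not normalized, and FPKM values of the same genes (values from the deposited tables; library totals behind FPKM: not given in the sources used here). HISAT2, HOMER and hg38 are named in the submitters' processing notes without roles or versions. Counter, strand setting and the handling of multi-mapped reads: not given in the sources used here. FPKM totals were recovered from counts, FPKM and RefSeq lengths of small RNA genes with at least 20 counts and a span up to 400 bases.

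IP and input were compared with edgeR 4.0.16 (quasi-likelihood, R 4.3.3) on all counts, with default filter, TMM factors over the tested genes (0.968, 0.860, 1.06 and 1.13 for SF3B6 IP 1, IP 2, input 1 and input 2), a group term without covariates, and Benjamini-Hochberg correction over 3668 genes at 0.05. The filter came to 3, 2, 18 and 28 counts in 2 libraries, beside edgeR's default minimum for the total over all libraries. Summed rows replaced their members in the same fit. Ratios of pooled counts use TMM-scaled totals with exact 95% intervals. DESeq2 1.42.0 and limma 3.58.1 on log2(FPKM + 1) or log2(FPKM + 0.1) were alternatives. The edgeR script was tested on simulated data. A count of 0 allows up to 3 counts, which is 54.1, 98.6, 9.46 and 5.77 CPM in the libraries.

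Named were all tested members, others with at least 10 counts, and partner genes fixed by list or past the threshold. RNA5S17, RNA5SP74, RNA5SP226, RNA5SP335, GTF3C1, POLR3A and RPL23 fall outside this rule and were chosen after their values were seen. Of the members, 47 matched RefSeq symbols of GRCh38.p14, whose table gives spans but no exons. Where RefSeq and FPKM-implied lengths differed by over 50 bases (2 pseudogenes) no coordinates are given. No pairing of the libraries by replicate number was detected (correlation of deviations 0.00). With IP libraries this shallow, that correlation cannot exclude a pairing. No table names RN7SK; the 2 rows named 7SK were used. 5S sequences were not used here. Members and lists were chosen with earlier results of these data known.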

Additional observations from a re-analysis of the deposited data

How the results depend on the processing

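The 5S sum kept its direction in every alternative tried. Its log2 fold change of 2.78 was 1.20 ± 0.42 (SE) with the FPKM totals. It was 1.19 ± 0.41 with log2(FPKM + 1) and 1.19 ± 0.57 with log2(FPKM + 0.1). With TMM factors over all rows (added after seeing the data) it was 2.29 ± 0.24, and 2.47 to 3.26 when each library was left out. For the RNA5S genes (2.59) these values were 1.00 ± 0.44, 0.98 ± 0.41, 0.98 ± 0.58, 2.11 ± 0.23 and 2.29 to 3.0. For the pseudogenes (3.03) they were 1.44 ± 0.45, 1.43 ± 0.41, 1.43 ± 0.57, 2.54 ± 0.24 and 2.67 to 3.55. Other settings moved each by less than the spread between replicates. Of the tested members, 9 were called; 2 were with the FPKM totals, 1 with log2(FPKM + 0.1), and 2 to 6 without 1 library. Over all genes 99 were higher and 50 lower in the fit reported; the counts were 17 and 2098 with the FPKM totals, 27 and 2273 with log2(FPKM + 1), 15 and 1675 with log2(FPKM + 0.1), 47 and 244 with TMM over all rows, 60 and 90 with library totals, 67 and 69 with upper quartile scaling, 79 and 26 without a filter, 37 and 2 with DESeq2, and 26 to 94 higher and 5 to 70 lower without 1 library. With the replicate block, though no pairing was detected, the sum was at 2.80, and 68 genes were higher and 22 lower. RNA5S13 lost its call there (edgeR adjusted p = 0.0607). The partner lists held 1 called gene in the fit reported and 1 with library totals, but not the same gene. The ratio of 5S to U6 (0.44 on the log2 scale, from 10 counts of U6) ran from -0.51 without SF3B6 IP 1 to 1.40 without SF3B6 IP 2, and was -0.21 without input 2. Depth limits single copies, 32 of which had under 10 counts.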
